A study of Homo sapiens with 6 samples.

Results

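The ERK feedback inhibitors are 10 genes whose products hold back the ERK pathway. They comprise the MAP kinase phosphatases DUSP4, DUSP5, DUSP6 and DUSP7, the Sprouty genes SPRY1, SPRY2 and SPRY4, the Sprouty-related genes SPRED1 and SPRED2, and the receptor inhibitor ERRFI1. They were taken by gene name from a count table of 58735 genes, in which each name occurred once, and all 10 were among the 16655 genes with enough reads to be tested. The table comes from RNA sequencing of untreated T3M4 cells, an established human pancreatic ductal adenocarcinoma line, grown to near confluence in DMEM with serum. There were 3 libraries with the genotype label of a MUC16 knockout, titled T3M4M16, and 3 with the label of MUC16 expression, titled T3M4WT. They are called KO-labelled and WT-labelled libraries here, because the targeted transcript was higher under the knockout label. MUC16, a large membrane mucin, had 292, 504 and 323 counts in the KO-labelled libraries, against 98, 144 and 90 in the WT-labelled ones (log2 fold change 1.79 ± 0.17, SE, edgeR quasi-likelihood, adjusted p = 4.79e-09). Scaled to library size and gene length, MUC16 was scarce in both, at a mean of 0.343 FPKM in KO-labelled and 0.0993 FPKM in WT-labelled libraries. RNA counts do not tell whether MUC16 protein was made. The labels do not say how the knockout was made, whether it is 1 clone, or whether the 3 libraries of each title are cultures of their own. The p-values thus rest on the spread within each title, and that spread may be technical.

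Growth factor receptors activate RAS, RAF and MEK, and MEK activates the kinases ERK1 and ERK2. ERK in turn induces genes that restrain its own pathway at several levels. The abundance of their transcripts is widely read as a gauge of pathway output. Whether ERK induces each inhibitor in these cells was not tested. ERRFI1 binds and inhibits receptors of the EGFR family, Sprouty and SPRED proteins act between receptor and RAF, and the phosphatases remove the activating phosphates from ERK itself.

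Library totals ran from 19088927 to 28612621 counts among the KO-labelled libraries and from 22963814 to 27647455 among the WT-labelled ones. Levels below are CPM, which are counts scaled to library size, with TMM factors of 1.025 to 1.033 in KO-labelled and 0.9724 to 0.9742 in WT-labelled libraries. The libraries had the markers of an epithelial line, among them the keratins KRT8 (log2 fold change 0.98) and KRT19 (0.75) and the adhesion genes EPCAM (0.66) and CDH1 (0.46). All 6 epithelial markers examined were higher in the KO-labelled libraries, and their summed level was 5491 to 5756 CPM there, against 3488 to 3567 CPM in the WT-labelled ones. Of 12 markers of other cell types, 4 were tested and 3 of these were higher, with summed levels of 60.3 to 65.2 CPM in KO-labelled and 43.1 to 49.9 CPM in WT-labelled libraries. CPA1 and GCG were at 0 in every library, and COL1A1, a collagen chain (log2 fold change 0.43), and PECAM1 (0.36) made up most of the sum, while VWF (1.40) was the other called gene. The part of these markers in the results below was not tested.

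Of the 10 inhibitors, 7 differed between the groups, and they did not move together. SPRY4, DUSP7, SPRY1, DUSP6 and SPRED1 were lower in the KO-labelled libraries, ERRFI1 and SPRY2 were higher, and DUSP4, DUSP5 and SPRED2 did not pass the test (edgeR quasi-likelihood test, Benjamini-Hochberg adjusted p threshold of 0.05). These 7 of 10 stand against a background in which 52.6% of all tested genes passed, so such a count is not far from that of the transcriptome. By direction, 5 of 10 were lower where 25.9% of all tested genes were, and 2 of 10 were higher where 26.7% were. The 3 KO-labelled values lay wholly outside the 3 WT-labelled values for the same 7 genes, against 59.0% of all tested genes. The median log2 fold change of the 10 genes, KO-labelled over WT-labelled, was -0.13, beside 0.003 over all genes tested. The falls differed widely in size, since SPRY4 fell by 55.3% and SPRED1 fell by 9.77%. In bulk RNA, fewer cells with a transcript and less transcript per cell cannot be told apart. The authors' deposited table rests on the same libraries, so it is no separate check. It gives the same sign for all 10 genes and adjusted p-values under 0.05 for the same genes except SPRY2. Its log2 fold changes were -1.17 for SPRY4, -0.774 for DUSP7 and 0.272 for ERRFI1.

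**Figure D1:**
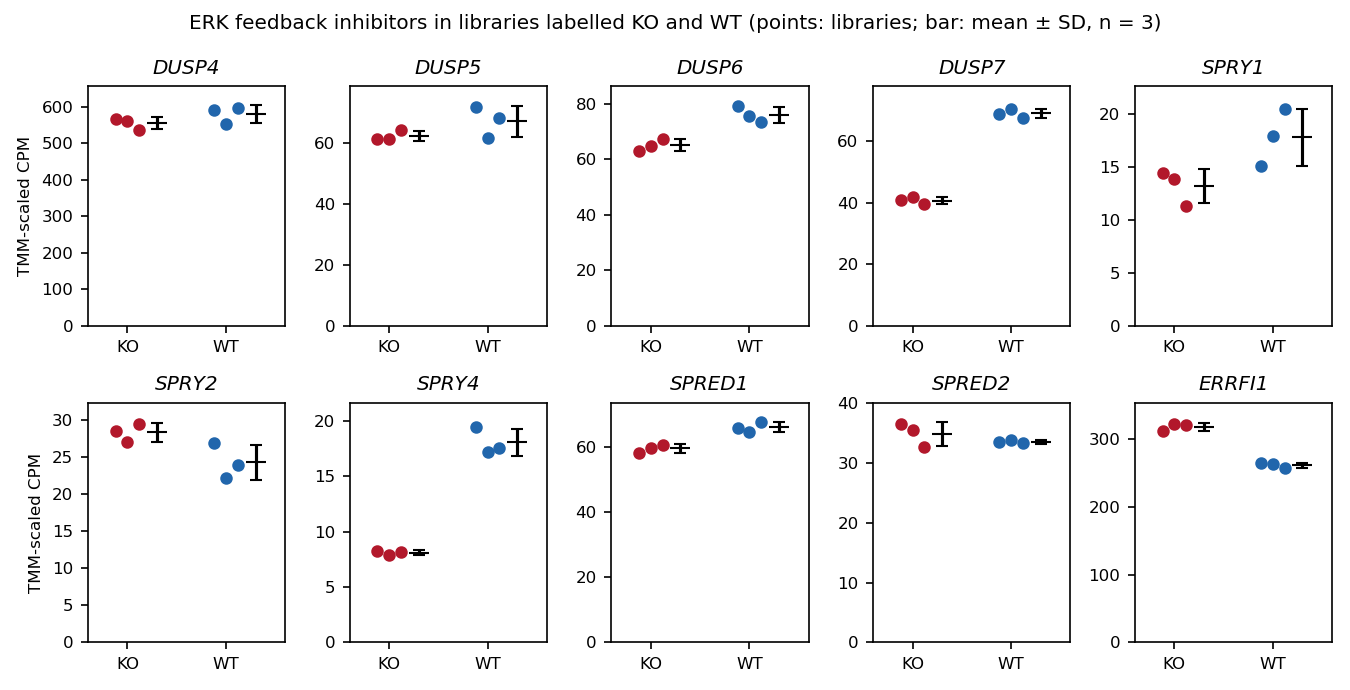
TMM-scaled CPM (vertical axes from 0) of the 10 inhibitors in each library, KO-labelled in red and WT-labelled in blue, with mean ± SD (n = 3) in black. SPRY4 and DUSP7 sit far lower in the KO-labelled libraries, ERRFI1 sits higher, and the points of DUSP4, DUSP5 and SPRED2 overlap.

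The Sprouty genes diverged most. SPRY4 (ENSG00000187678) lies on the minus strand of chromosome 5, from 142310427 to 142326455 (GRCh38). It had 162, 202 and 238 counts in the KO-labelled libraries, against 513, 463 and 391 in the WT-labelled ones. Its level was 8.29, 7.86 and 8.13 CPM in the KO-labelled libraries, against 19.5, 17.2 and 17.5 CPM in the WT-labelled ones. Every KO-labelled library thus held less than every WT-labelled one. The log2 fold change was -1.16 ± 0.09 (SE, edgeR quasi-likelihood, adjusted p = 4.71e-10), and 0.913% of all tested genes had a lower one. SPRY4 curbs RAS activation downstream of receptors and is among the genes most often used as a readout of ERK activity. An overlapping antisense gene, SPRY4-AS1, had at most 6 counts in a library.

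SPRY1 (ENSG00000164056, chromosome 4, 123396795 to 123403760, plus strand) was lower too, but less evenly. It had 14.4, 13.9 and 11.4 CPM in the KO-labelled libraries, against 15.1, 18.0 and 20.5 CPM in the WT-labelled ones. The closest libraries of the groups, KO replicate 1 and WT replicate 1, were less than 1 CPM apart. The log2 fold change was -0.44 ± 0.11 (SE, edgeR quasi-likelihood, adjusted p = 0.00156). SPRY2 (ENSG00000136158, chromosome 13, 80335976 to 80340951, minus strand) went the other way. This Sprouty protein binds the adaptor GRB2 and the ubiquitin ligase CBL. SPRY2 had 28.6, 27.0 and 29.5 CPM in the KO-labelled libraries, against 26.9, 22.3 and 23.9 CPM in the WT-labelled ones, so that KO replicate 2 and WT replicate 1 nearly met. Its rise was small (log2 fold change 0.22 ± 0.08, SE, edgeR quasi-likelihood, adjusted p = 0.0189). The call was lost without KO replicate 1 (adjusted p = 0.0527), KO replicate 3 (0.0769), WT replicate 2 (0.129) or WT replicate 3 (0.0643). It was also lost with DESeq2 (0.0682). The authors' deposited table gives the same log2 fold change as DESeq2 (0.208) and an adjusted p of 0.0716.

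The promoters of SPRY4 and SPRY2 are shown because these paralogues moved in opposite directions. Each run is the 250 bases before a RefSeq start (GRCh38.p14), 5′ to 3′ on the gene's strand. Capitals mark 2 motifs searched on both strands. They are the ETS site CCGGAA, bound by factors that ERK phosphorylates, and TGACG, the core of cyclic AMP response elements. Only these exact letters were searched, so shorter runs such as GGAA, which the SPRY4 run holds, are not marked or counted. The RefSeq start of SPRY4 lies inside the gene as the count table annotates it, so a start further upstream is not covered.

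SPRY4, chr5:142324248-142324497, minus strand: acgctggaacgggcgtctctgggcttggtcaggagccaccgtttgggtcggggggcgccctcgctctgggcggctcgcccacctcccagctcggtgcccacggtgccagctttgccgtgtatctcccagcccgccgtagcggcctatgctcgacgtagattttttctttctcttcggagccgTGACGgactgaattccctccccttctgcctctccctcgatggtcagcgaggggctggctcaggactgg

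SPRY2, chr13:80341127-80341376, minus strand: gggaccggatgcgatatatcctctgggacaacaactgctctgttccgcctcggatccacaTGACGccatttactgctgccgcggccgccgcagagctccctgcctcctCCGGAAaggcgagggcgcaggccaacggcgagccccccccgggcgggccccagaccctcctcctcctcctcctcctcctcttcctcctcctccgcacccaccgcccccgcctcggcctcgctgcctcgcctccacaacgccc

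SPRY2 has 3 starts in the RefSeq table, and the run printed is the only one of the 3 with a match. Its start lies outside the gene as the count table annotates it, whereas the other SPRY2 starts lie inside. The SPRY2 run holds 1 CCGGAA, 142 bases before the start, and 1 TGACG, 190 bases before it. The SPRY4 run holds 1 TGACG, 68 bases before the start, and no CCGGAA. Of the 10 inhibitors, 8 had entries for 12 starts in the RefSeq table, with several starts for some genes. Among these 12, CCGGAA was found in 2, belonging to SPRY1 and SPRY2, and TGACG in 2, belonging to SPRY2 and SPRY4. The AP-1 motif TGANTCA and the motif TGAATGAA, bound by the repressor CIC, were found in 0 of 12. Over all 34943 promoter windows of this length, CCGGAA was present in 14.5%, TGACG in 21.2%, TGANTCA in 6.59% and TGAATGAA in 1.4%. A match is a run of letters only, and gene counts do not tell which start was used.

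Because the Sprouty genes moved unequally, their proportions changed within each library. Levels of different genes are compared per length, in the authors' FPKM. SPRY4 made up 8.87% ± 0.0812 of the summed FPKM of the 3 Sprouty genes in KO-labelled libraries and 18.0% ± 0.986 in WT-labelled ones (SD, n = 3 each). SPRY2 made up 67.1% ± 2.73 in KO-labelled and 52.4% ± 3.66 in WT-labelled libraries (SD, n = 3 each), and SPRY1 24.0% ± 2.81 in KO-labelled and 29.5% ± 4.54 in WT-labelled ones. The ratio of SPRY4 to SPRY2 FPKM was 0.134, 0.135 and 0.127 in the KO-labelled libraries, against 0.335, 0.358 and 0.339 in the WT-labelled ones. That is a difference of -1.38 ± 0.04 in log2 ratio (SE, n = 3 each), with a two-sided exact permutation p = 0.1, the smallest that 3 against 3 allow, or 0.117 adjusted over the 7 paralogue pairs compared. The summed Sprouty FPKM was 14.2, 13.4 and 13.7 in the KO-labelled libraries, against 15.6, 14.4 and 15.6 in the WT-labelled ones. This sum was lower by a smaller margin than SPRY4 itself. SPRY4 was the least abundant of the 3, SPRY1 fell less, and SPRY2, the most abundant, rose.

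**Figure D2:**
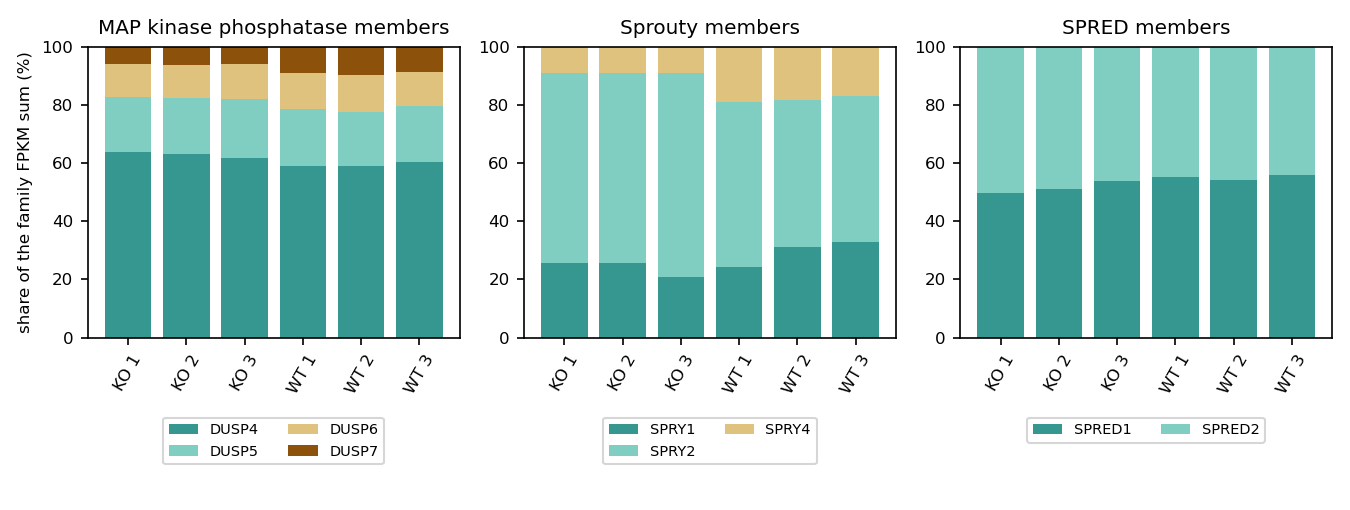
Share (%) of each gene in the summed FPKM of its family, for each KO-labelled and WT-labelled library. SPRY4 takes a mean of 8.87% of the Sprouty sum in KO-labelled and 18.0% in WT-labelled libraries, and DUSP7 takes 5.82% to 6.05% of the phosphatase sum in KO-labelled and 8.78% to 9.72% in WT-labelled ones.

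Among the phosphatases of the set, DUSP7 fell most. DUSP7 (ENSG00000164086, chromosome 3, 52048919 to 52056550, minus strand) encodes a cytoplasmic phosphatase selective for ERK. It had 796, 1072 and 1156 counts in the KO-labelled libraries, against 1812, 1896 and 1505 in the WT-labelled ones. Scaled to library size, it had 40.7, 41.7 and 39.5 CPM in the KO-labelled libraries, against 68.8, 70.5 and 67.5 CPM in the WT-labelled ones. Libraries of 1 group differed by at most a few CPM, far less than the gap between groups. The log2 fold change was -0.76 ± 0.05 (SE, edgeR quasi-likelihood, adjusted p = 2.98e-11), and 3.25% of all tested genes had a lower one. Its RefSeq promoter, shown because it belongs to the phosphatase of the set that changed most, held none of the 4 motifs and was 78.4% G or C.

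DUSP7, chr3:52056572-52056821, minus strand: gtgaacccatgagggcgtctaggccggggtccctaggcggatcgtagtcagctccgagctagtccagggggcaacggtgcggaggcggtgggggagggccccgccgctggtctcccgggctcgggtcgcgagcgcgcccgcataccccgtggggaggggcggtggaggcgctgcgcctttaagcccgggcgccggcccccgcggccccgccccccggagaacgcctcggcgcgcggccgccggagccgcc

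DUSP6 (ENSG00000139318, chromosome 12, 89347232 to 89353271, minus strand), the closest relative of DUSP7 in function and a cytoplasmic ERK phosphatase used as a readout of the pathway, fell far less. It had 63.2, 64.8 and 67.4 CPM in the KO-labelled libraries, against 79.3, 75.7 and 73.5 CPM in the WT-labelled ones. The groups did not overlap, and the log2 fold change was -0.22 ± 0.05 (SE, edgeR quasi-likelihood, adjusted p = 0.00062). The ratio of DUSP7 to DUSP6 FPKM was 0.529, 0.528 and 0.480 in the KO-labelled libraries, against 0.711, 0.764 and 0.753 in the WT-labelled ones (log2 difference -0.54 ± 0.06, SE, n = 3 each, two-sided exact permutation p = 0.1, adjusted 0.117). The summed FPKM of the 4 phosphatases was 121.5, 120.4 and 118.8 in the KO-labelled libraries, against 138.1, 127.8 and 135.4 in the WT-labelled ones, without overlap. DUSP4 made up 63.0% ± 1.14 of that sum in KO-labelled and 59.6% ± 0.779 in WT-labelled libraries (SD, n = 3 each).

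The nuclear phosphatases of the set, DUSP5 and DUSP4, did not pass the test. DUSP5 (ENSG00000138166, chromosome 10, 110497838 to 110511544, plus strand), a nuclear ERK phosphatase, had 61.3, 61.2 and 64.1 CPM in the KO-labelled libraries, against 71.6, 61.5 and 67.9 CPM in the WT-labelled ones. KO replicate 3 lay above WT replicate 2, so the groups overlapped. Its log2 fold change was -0.11, with a 95% interval of -0.22 to 0.01 (edgeR quasi-likelihood, adjusted p = 0.118). Without WT replicate 2 it passed, at -0.17 and an adjusted p of 0.0197. A processed pseudogene, DUSP5P1, had 53, 80 and 65 counts in the KO-labelled libraries, against 27, 36 and 24 in the WT-labelled ones, and the division of reads between gene and pseudogene is uncertain. DUSP4 (ENSG00000120875, chromosome 8, 29333064 to 29350668, minus strand), a nuclear phosphatase of ERK and other MAP kinases, was by far the most abundant of the 4. It had 567.4, 561.4 and 537.7 CPM in the KO-labelled libraries, against 592.1, 551.9 and 596.8 CPM in the WT-labelled ones, again with overlapping groups. Its log2 fold change was -0.06, with a 95% interval of -0.15 to 0.02 (edgeR quasi-likelihood, adjusted p = 0.206), and 0.07 with cyclic loess scaling.

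Upstream of RAF, ERRFI1 rose. ERRFI1 (ENSG00000116285, chromosome 1, 8004404 to 8026308, minus strand), also known as MIG6, had 6085, 8283 and 9412 counts in the KO-labelled libraries, against 6971, 7075 and 5745 in the WT-labelled ones. It had 311.4, 322.2 and 321.4 CPM in the KO-labelled libraries, against 264.5, 262.9 and 257.5 CPM in the WT-labelled ones. All KO-labelled values lay above all WT-labelled ones, and the log2 fold change was 0.28 ± 0.04 (SE, edgeR quasi-likelihood, adjusted p = 1.84e-06). The rise was small beside the transcriptome, in which 49.3% of tested genes had a larger change in either direction. An overlapping antisense gene had at most 38 counts in any library, which is few beside those of ERRFI1. Its RefSeq promoter, shown as that of the gene with the clearest rise, also held none of the 4 motifs and was 75.2% G or C.

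ERRFI1, chr1:8026310-8026559, minus strand: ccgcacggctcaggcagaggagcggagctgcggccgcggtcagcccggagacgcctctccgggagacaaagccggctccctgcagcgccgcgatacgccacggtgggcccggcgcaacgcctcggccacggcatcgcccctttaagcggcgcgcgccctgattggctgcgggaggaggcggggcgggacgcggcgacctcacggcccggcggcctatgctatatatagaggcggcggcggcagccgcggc

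SPRED proteins bring the RAS inhibitor neurofibromin to the membrane. SPRED1 (ENSG00000166068, chromosome 15, 38252326 to 38357249, plus strand) had 58.4, 59.8 and 60.9 CPM in the KO-labelled libraries, against 66.0, 64.9 and 67.9 CPM in the WT-labelled ones. Although the groups did not overlap, the fall was small (log2 fold change -0.15 ± 0.05, SE, edgeR quasi-likelihood, adjusted p = 0.0157). It did not pass with upper-quartile factors (adjusted p = 0.123), with cyclic loess (0.18), without KO replicate 1 (0.0625) or without WT replicate 3 (0.0735). SPRED2 (ENSG00000198369, chromosome 2, 65310851 to 65432637, minus strand) had 36.6, 35.5 and 32.6 CPM in the KO-labelled libraries, against 33.5, 33.9 and 33.3 CPM in the WT-labelled ones. KO replicate 3 was below every WT-labelled library and the other KO-labelled libraries were above them, and the log2 fold change was 0.05, with a 95% interval of -0.08 to 0.19 (edgeR quasi-likelihood, adjusted p = 0.519). The ratio of SPRED1 to SPRED2 FPKM was 0.996, 1.05 and 1.17 in the KO-labelled libraries, against 1.23, 1.19 and 1.27 in the WT-labelled ones.

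Set in order per length, DUSP4 and ERRFI1 led in both groups. DUSP4 and ERRFI1 averaged 75.7 ± 2.19 and 75.2 ± 1.22 FPKM in the KO-labelled libraries, a difference within their spread, while in the WT-labelled libraries DUSP4 averaged 79.7 ± 3.45 FPKM and ERRFI1 62.3 ± 0.957 (SD, n = 3 each). DUSP5 followed at 23.5 ± 0.638 FPKM in KO-labelled and 25.5 ± 1.99 in WT-labelled libraries, then DUSP6 at 13.9 ± 0.448 in KO-labelled and 16.4 ± 0.655 in WT-labelled ones. In the KO-labelled libraries SPRY2 came next, at 9.23 ± 0.429 FPKM, above DUSP7, at 7.11 ± 0.187. DUSP7 was above SPRED2, at 6.69 ± 0.400, in each KO-labelled library. SPRED1, at 7.15 ± 0.141, was above DUSP7 in KO replicate 3 and below it in the other KO-labelled libraries. In the WT-labelled libraries DUSP7 came next instead, at 12.2 ± 0.265 FPKM, above SPRED1, at 7.99 ± 0.182, and SPRY2, at 7.99 ± 0.787, which could not be set apart from each other there, and SPRED2, at 6.49 ± 0.0571. SPRY1 and SPRY4 were lowest, with 3.30 ± 0.409 and 1.22 ± 0.0366 FPKM in KO-labelled libraries and 4.49 ± 0.670 and 2.74 ± 0.191 in WT-labelled ones. The gene with the largest fall was therefore the least abundant of the set. Summed over the 10 genes, the level was 1190.2, 1195.4 and 1172.6 CPM in the KO-labelled libraries, against 1237.2, 1178.7 and 1226.2 CPM in the WT-labelled ones. These sums overlap.

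Each of the 10 genes lies on a different chromosome, which matters for SPRY4, since genes of chromosome 5 tended to be lower in the KO-labelled libraries. Over its 781 tested genes the median was -0.20 on the log2 scale, with 111 genes higher and 366 lower. Among the 20 tested genes nearest to SPRY4, spread over 5.45 Mb, the median was -0.34, with 1 higher and 11 lower. The log2 fold change of SPRY4 was 0.96 below the median of its chromosome, and 0 of its 20 neighbours were lower, the lowest of them being at -0.96. On the chromosomes of the other inhibitors the medians ran from -0.03 to 0.05. DUSP7 was likewise below each of its 20 neighbours, whose median was 0.01 and whose lowest value was -0.62. The 20 neighbours of DUSP6 had a median of 0.47, with 12 higher and 2 lower, so that its fall went against its surroundings, whereas those of SPRED1 had a median of -0.16, close to the -0.15 of SPRED1 itself. The part of gene dosage in these values was not tested.

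**Figure D3:**
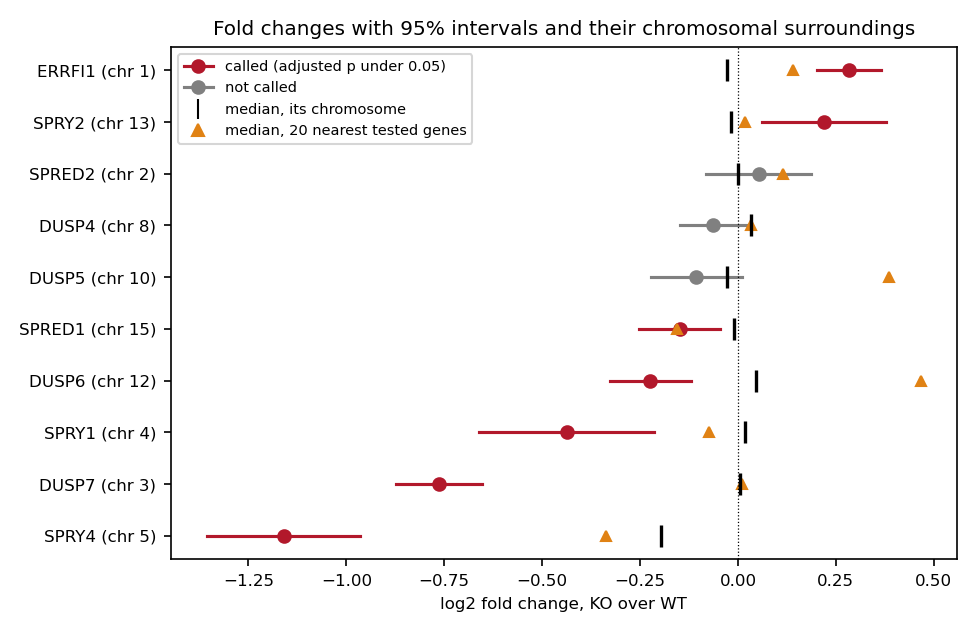
Log2 fold changes, KO-labelled over WT-labelled, of the 10 inhibitors with 95% intervals (red: adjusted p under 0.05), beside the median of all tested genes on the same chromosome (black bars) and of the 20 nearest tested genes (triangles). SPRY4 and DUSP7 lie far left of both medians, while SPRED1 lies on the median of its neighbours.

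**Figure D4:**
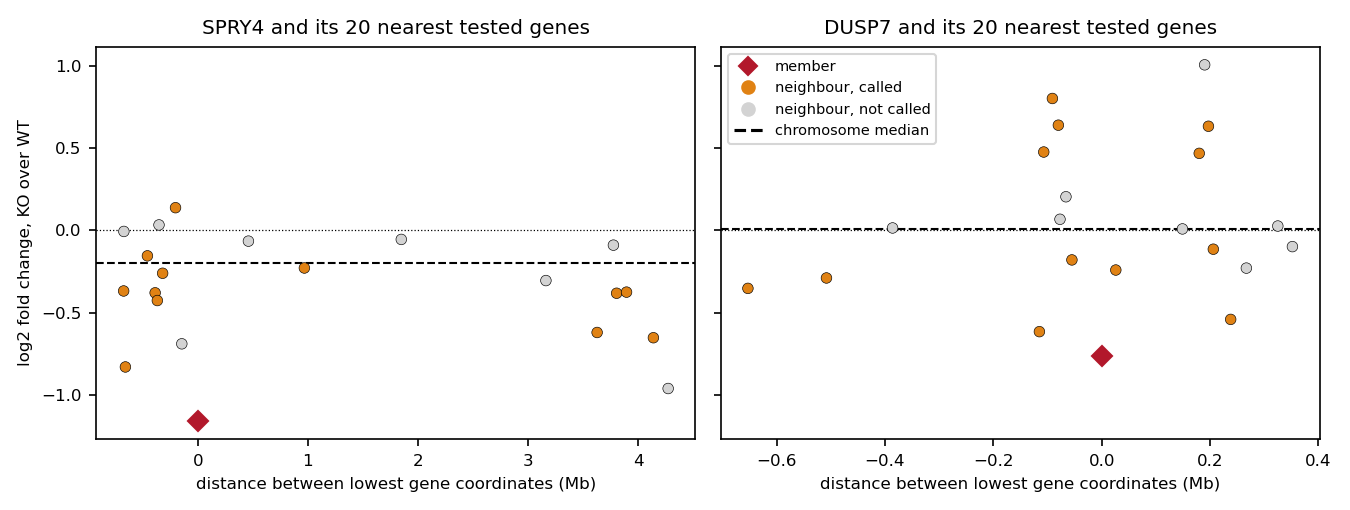
Log2 fold changes of SPRY4 and DUSP7 (diamonds) and of the 20 tested genes nearest to each (circles, orange where adjusted p was under 0.05), against the distance in Mb between lowest gene coordinates. Most genes around SPRY4 lie below 0, those around DUSP7 lie on both sides, and both inhibitors are the lowest point of their panel.

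The relatives outside the set were mixed as well. Of the 6 other MAP kinase phosphatases tested, 3 were higher and 1 lower (median log2 fold change 0.18). Those that rose, DUSP16 (log2 fold change 0.65), DUSP10 (0.31) and DUSP8 (1.80), act mainly on the stress kinases p38 and JNK. DUSP16 had 24.8 ± 0.833 CPM in KO-labelled and 15.8 ± 0.486 CPM in WT-labelled libraries (SD, n = 3 each), whereas DUSP8 was scarce, with 3.56 ± 0.495 CPM in KO-labelled and 1.03 ± 0.277 CPM in WT-labelled libraries. DUSP2, a nuclear phosphatase, fell (-0.82), and DUSP1 and DUSP9 did not pass (0.01 and 0.05). SPRED3 (log2 fold change 0.34, edgeR quasi-likelihood, adjusted p = 0.0997) and SPRY3 (-0.04, 0.85) did not pass either.

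Transcripts of the pathway that these inhibitors act on went both ways. Of 18 tested ligands and receptor tyrosine kinases, 8 were higher and 8 lower (median log2 fold change -0.003). The EGFR family ligands HBEGF and NRG1 fell. HBEGF had 99.3 ± 1.20 CPM in KO-labelled libraries, against 203.5 ± 18.2 CPM in WT-labelled ones (log2 fold change -1.04). NRG1 fell by 0.78 on the log2 scale. The other ligands of this family were mixed. TGFA (-0.62) and EREG (-0.21) fell, BTC (0.32) and the scarce EPGN (0.72) rose, and AREG (-0.07) did not pass. These other ligands were named after their values were seen. The receptor FGFR2 fell (-0.84) and the ligand FGF2 rose (1.38). HBEGF, like SPRY4, lies on chromosome 5. Of 18 genes from adaptors to ERK, 8 were higher and 5 lower (median 0.01), with the exchange factor SOS2 (0.79), the scaffold KSR1 (0.63), the kinase gene MAPK3, which encodes ERK1 (0.59), and the adaptor GAB1 (0.47) changing most. Of 17 other restraints on receptors and RAS, 4 were higher and 6 lower (median -0.02). Among them the RAS GTPase activator RASAL1 (1.19), the ubiquitin ligase CBLB (0.80) and IL17RD (0.75), a membrane antagonist of FGF signalling, rose, and PEA15, which holds ERK in the cytoplasm, fell (-0.44).

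Of 15 other transcriptional targets of ERK that were tested, 5 were higher and 7 lower (median log2 fold change -0.14). FOSL1, an AP-1 subunit, fell to 72.9 ± 2.20 CPM in KO-labelled libraries, against 190.0 ± 10.3 CPM in WT-labelled ones (-1.38, SD, n = 3 each), and IER3 fell as well (-0.57). JUNB (0.58) and the ETS factor ETV1 (0.70) rose. The ETS factors ETV4 and ETV5, also used as readouts of ERK activity, did not pass (-0.10 and -0.14, edgeR quasi-likelihood, adjusted p = 0.24 and 0.0765). Inhibitors read as a gauge of the pathway did not share a direction either. SPRY4 and DUSP6 fell, SPRY2 rose (0.22) and DUSP4 did not pass (-0.06). ETV4 and ETV5 were named after their values were seen, as were DUSP1 and DUSP9. ETS factors and the repressor CIC with its partners gave 2 higher and 4 lower of 10 (median -0.09), with ETS1 (-0.92) and ERF (-0.37) lower and ATXN1 (0.38) and ETS2 (0.36) higher. Of 10 tested kinases of the p38 and JNK branches, 3 were higher and 3 lower (median -0.03), MAP2K6 (1.04), MAPK11 (0.97) and MAPK13 (0.45) being higher and MAP2K3 (-0.38) lower. Of 9 reported partners and modifiers of Sprouty proteins, 1 was higher and 3 lower (median -0.04). MKNK2 (0.32) rose, and NEDD4 (-0.33), the phosphatase subunit PPP2CA (-0.33), another gene of chromosome 5, and CAV1 (-0.15) fell. None of these counts is read as particular to a list, since 26.7% and 25.9% of all genes were higher and lower.

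**Figure D5:**
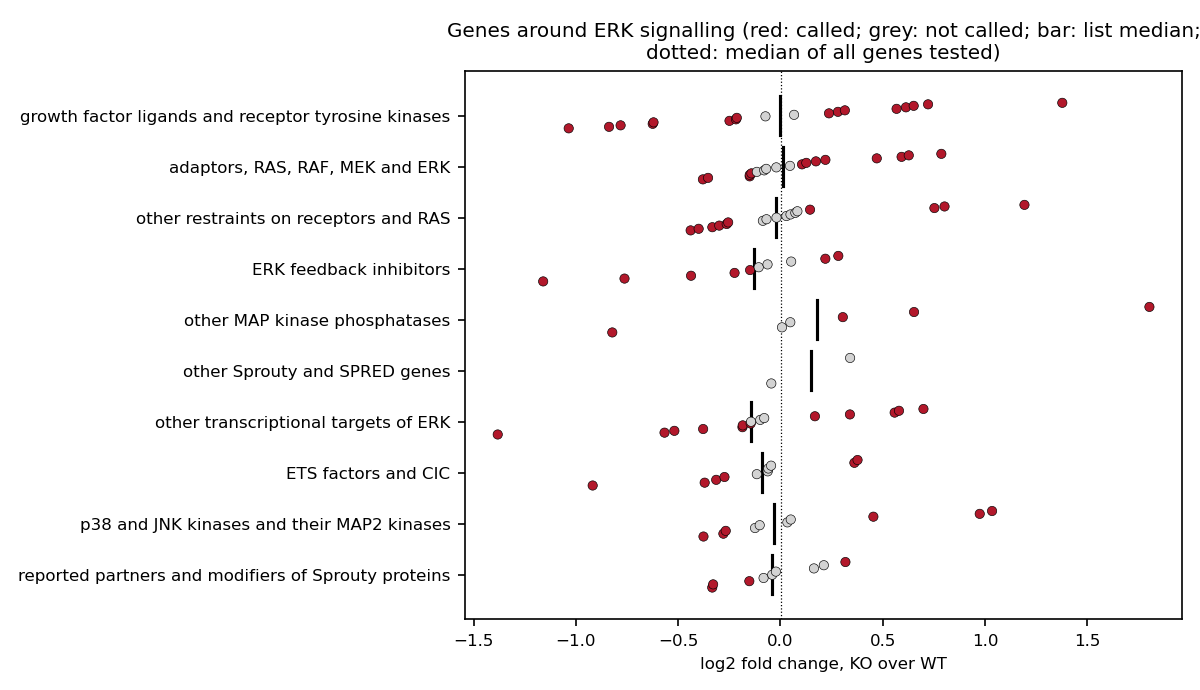
Log2 fold changes, KO-labelled over WT-labelled, of every tested gene in the inhibitor set and in 9 lists of related genes (red: adjusted p under 0.05; bars: list medians; dotted line: median of all tested genes). Every list with more than 2 genes holds called genes on both sides of 0.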

How the data were processed

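Column-purified RNA of untreated T3M4 cells was turned into cDNA libraries with a NEBNext Ultra kit, per the labels' protocols, a kit that keeps no strand information. The submitters' processing notes name GRCh38 and the tools DESeq, fastp, HISAT2 and STAR, without roles. The read counter was not given in the sources used here, nor was its strand option. Reads of overlapping genes on opposite strands may therefore not be told apart. The deposited table holds raw counts per gene and library. The authors' second table holds FPKM values, and also the authors' own log2 fold changes and p-values, per the file headers. For the inhibitors and MUC16, the FPKM values were counts divided by 1 factor per library, by gene length and by 1 shared constant.

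Libraries were grouped by genotype label, 3 against 3. Counts were tested over all genes with edgeR 4.0.16 in R 4.3.3 (glmQLFit and glmQLFTest, two-sided), with TMM factors, filterByExpr (minimum count 10, minimum total count 15) and Benjamini-Hochberg adjustment over the 16655 genes tested. Standard errors come from the quasi-likelihood F statistic, and 95% intervals from its degrees of freedom. Fold changes are KO-labelled over WT-labelled. The step was tested on simulated counts. Totals of at least 19088927 counts per library and a biological coefficient of variation of 0.0498 set the precision.

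Other settings tried were an adjusted p threshold of 0.01, a fit without chromosome 5, fits without each library in turn, a block for the replicate number, DESeq2 1.42.0, limma-voom, no filter, a filter of 50 counts in 3 libraries, and scaling by upper quartile, by DESeq2 size factors or by cyclic loess (limma 3.58.1). The inhibitors, the lists and the tests were chosen with earlier results of these data known. Named genes are the 10 inhibitors, MUC16 and, per list, up to 4 called genes with the largest changes, or, in a list with none, 2 by lowest p. Promoters are from RefSeq on GRCh38.p14. DUSP4 and DUSP5 had no entry.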

Additional observations from a re-analysis of the deposited data

How the results depend on the processing

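Over 16 alternatives (15 for SPRY4, which the fit without chromosome 5 leaves out), SPRY4 (log2 fold change -1.22 to -1.11), DUSP7 (-0.78 to -0.70), SPRY1 (-0.55 to -0.33), DUSP6 (-0.25 to -0.15) and ERRFI1 (0.27 to 0.40) kept their direction and their call. SPRY2 kept its direction (0.15 to 0.30) and lost its call in 6 alternatives, and SPRED1 kept its direction (-0.17 to -0.08) and lost its call in 5. Accordingly, 1 inhibitor was called higher with DESeq2 and at an adjusted p threshold of 0.01, and 1 to 2 when single libraries were left out. DUSP4 turned to 0.0727 with cyclic loess. The cause was not tested. The log2 ratio of the summed level of the 10 genes was -0.0336, and turned to 0.0448 with library totals alone in place of TMM factors. With the replicate number as a block, 8442 genes were called in place of 8759, and no inhibitor changed its call. Deviations of same-numbered libraries correlated at 0.0116, 0.0205 and -0.024, and not every library correlated best with its own number, so the numbers were not taken as pairs. Depth limits SPRY4 and SPRY1 most, with 162 to 513 and 282 to 484 counts per library.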
